A study of Mus musculus with 17 samples.

Results

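Postsynaptic scaffold and plasticity genes were followed in RNA pulled down from the mediobasal hypothalamus with the tagged ribosomes of POMC (pro-opiomelanocortin) neurons, the appetite-suppressing neurons of the arcuate nucleus. The 39 genes were taken by symbol from a fixed list, and all 39 are among the 15355 genes of the deposited table. They comprise 17 scaffold and adhesion genes (4 Dlg, 4 Dlgap, 3 Shank, 3 Homer and 3 neuroligin genes), 16 signalling genes and 6 metabotropic glutamate receptors.

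The 17 libraries form 4 groups of offspring. There were 4 libraries from 21-day-old (P21) offspring of dams on a 45% high-fat diet (HFD), 3 from P21 offspring of chow-fed dams, 5 from newborn (P0) HFD offspring and 5 from P0 chow offspring. Dams were POMC RiboTag females put on their diet when 6 weeks old, mated 4 weeks later and kept on it through lactation to P21, so the offspring met the diet before birth and, in the P21 groups, through nursing. In RiboTag mice an epitope-tagged ribosomal protein is made where the driver gene is or has been active, so cells that carried the driver earlier in development can keep the tag. The labels call the libraries biological replicates. The sources used here do not give the sex of the pups or the animals, litters or pools behind each library, so p-values measure the spread between these libraries, which may be in part technical.

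Values are normalized signal in CPM-like units, and estimated depth was 22.4 to 37.1 M reads per library. Pomc itself was at 7460 to 9818 units in HFD P21, 3878 to 12070 in chow P21, 90.7 to 1057 in HFD P0 and 146 to 1308 in chow P0. Glial markers were also present. The 14 oligodendrocyte-lineage markers summed to 4052 to 7451 units in HFD P21 and 8353 to 18561 in chow P21, against 362 to 484 in HFD P0 and 452 to 1084 in chow P0. Opalin was the sole gene of that list at 0 in any library. Summed over 12 astrocyte markers the signal was 2466 to 4188 in HFD P21, 5462 to 7988 in chow P21, 1516 to 2122 in HFD P0 and 1400 to 2274 in chow P0, and none of the 12 was at 0 in any library. The 9 immature-neuron markers, among them Dcx, ran the other way, at 3823 to 4362 in HFD P21 and 3596 to 3864 in chow P21, against 14493 to 17063 in HFD P0 and 14072 to 20832 in chow P0. In bulk RNA, fewer cells of a type and less RNA per cell cannot be told apart. The part of other cell types in the results given here was not tested.

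At excitatory synapses the postsynaptic density is a layered protein lattice under the membrane. PSD-95 family proteins (the Dlg genes, called MAGUKs) hold receptors and adhesion molecules at the surface, SAPAP proteins (the Dlgap genes) bind them from below, and Shank and Homer proteins join SAPAPs to deeper partners such as group I metabotropic receptors and the IP3 receptor of the endoplasmic reticulum. Calcium entering the spine acts through calmodulin on the kinase CaMKII and the phosphatase calcineurin, whose balance sets synaptic strength, and cAMP signalling acts through CREB on gene expression. Many of these proteins change in level or isoform as synapses mature after birth, and POMC neurons receive excitatory and inhibitory input that feeding state can remodel.

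**Figure D1:**
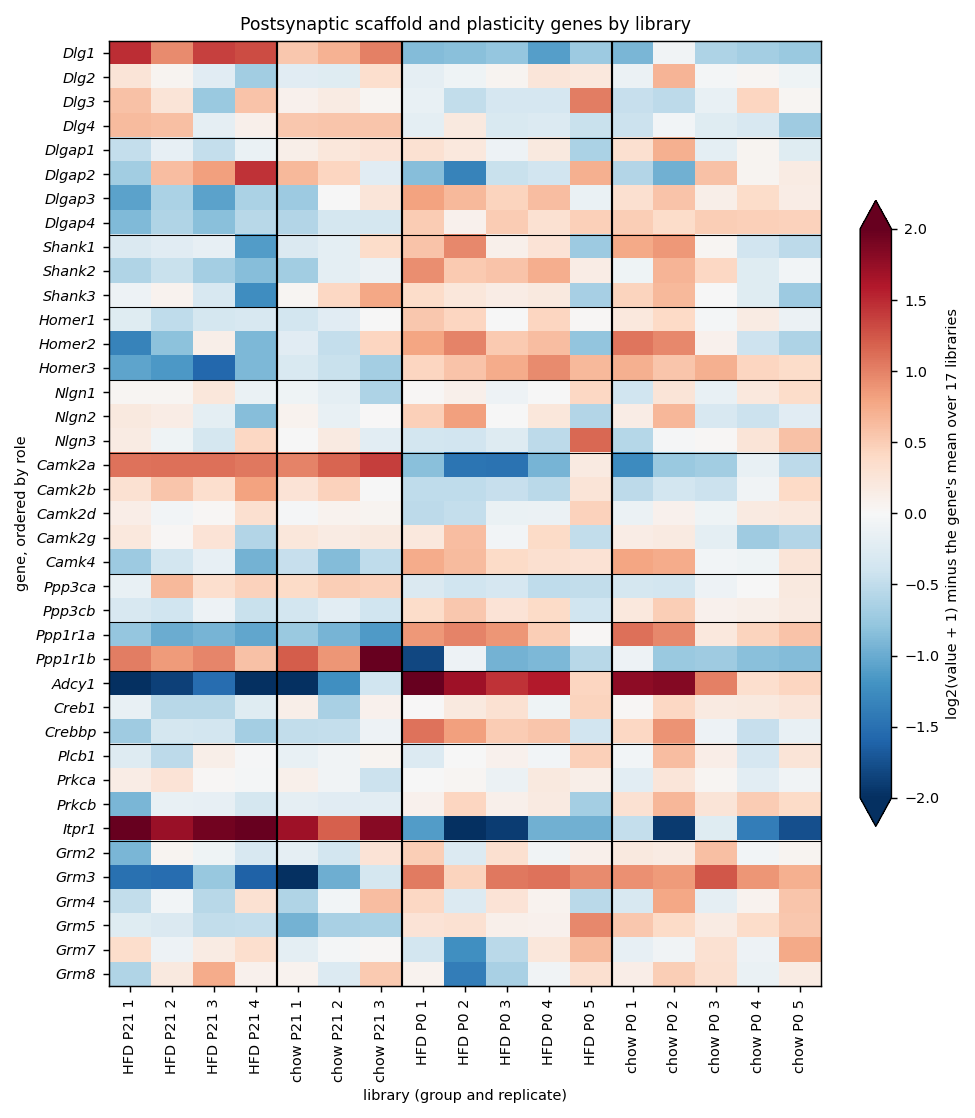
Each row is 1 of the 39 genes, ordered by role, and each column 1 of the 17 libraries, with the P21 groups to the left of the P0 groups and HFD to the left of chow at each age. Colour is log2(value + 1) minus the gene's mean over the 17 libraries. Itpr1, Camk2a, Ppp1r1b and Dlg1 are higher in P21 than in P0 libraries, Adcy1, Grm3 and Ppp1r1a lower, and HFD P0 replicate 5 departs from its group in many rows.

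The age comparisons called many of these genes and the diet comparisons none. In limma fits on log2(value + 1) with Benjamini-Hochberg adjustment at 0.05 over all genes tested, P21 against P0 passed for 20 of the 39 in HFD offspring (6 higher, 14 lower) and for 15 in chow offspring (6 higher, 9 lower). Over all genes tested, 50.9% passed with age in HFD offspring and 36.1% in chow offspring, so the members' shares are near the background. By direction, 24.7% of all genes were higher and 26.2% lower with age in HFD offspring, and 18.3% were higher and 17.7% lower in chow offspring. The P21 and P0 groups did not overlap for 43.6% of the members in HFD offspring and 38.5% in chow offspring. Over all genes tested these shares were 38.7% and 37.2%, so a lack of overlap with age was common. The median log2 difference of the 39 was -0.31 in HFD offspring and -0.19 in chow offspring, against -0.05 and -0.01 over all genes in the same comparisons. The count in HFD offspring moved with 1 library. Without HFD P0 replicate 5, 10 members were higher and 17 lower, with Camk2d (0.42), Dlgap2 (1.30), Grm7 (0.67) and Nlgn3 (0.42) added among the higher and Dlgap1 (-0.47), Shank1 (-0.92) and Prkcb (-0.60) among the lower. Over all genes, 3998 were then higher and 4121 lower, against 3521 and 3729 with all libraries.

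The comparisons in HFD and in chow offspring share no library. In both diets 5 members were higher at P21 (Dlg1, Camk2a, Ppp3ca, Ppp1r1b and Itpr1) and 8 were lower (Dlgap4, Homer3, Camk4, Ppp3cb, Ppp1r1a, Adcy1, Grm3 and Grm5). None passed in opposite directions, and 30 of the 39 log2 differences had the same sign in both diets. These are 12.8% higher in both, 20.5% lower in both and 76.9% of the same sign, against 15.0%, 14.1% and 80.3% of the 14109 genes tested in both comparisons. A further 7 members passed in HFD offspring and not in chow offspring, and 2 in chow offspring and not in HFD offspring. For these 9 the test of the difference itself, the diet by age interaction, gave adjusted p from 0.196 to 0.769 (limma), so a difference between the diets was not shown for any of them. The other 17 members passed in neither.

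**Figure D2:**
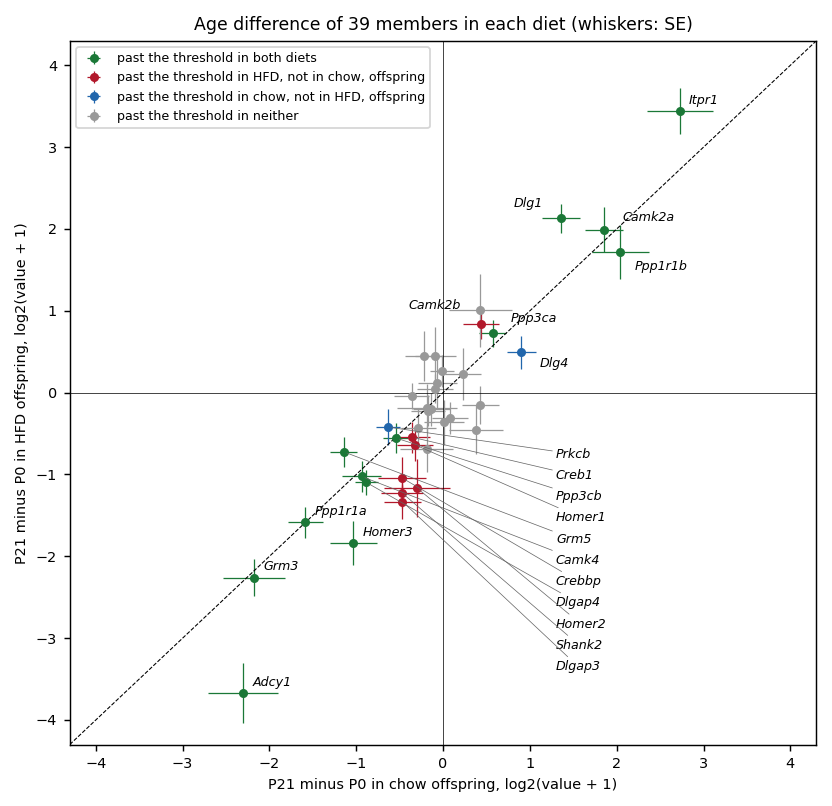
Each point is 1 of the 39 genes, with its P21 minus P0 difference in log2(value + 1) in HFD offspring on the vertical axis and in chow offspring on the horizontal axis; whiskers are standard errors and the dashed line marks equal differences. Points past the adjusted threshold are named and coloured by the diet in which they passed. Itpr1 lies at the upper right (3.44 in HFD and 2.73 in chow offspring) and Adcy1 at the lower left (-3.67 and -2.30).

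Among the MAGUK scaffolds Dlg1 changed most. Dlg1 encodes SAP97, which takes part in trafficking AMPA receptors. Its signal was 101, 70.0, 93.8 and 90.0 units in the 4 HFD P21 libraries, against 19.2, 19.8, 20.5, 16.2 and 21.4 in the 5 HFD P0 libraries. The chow libraries held 52.9, 59.0 and 73.4 at P21, against 18.6, 34.3, 23.0, 22.1 and 21.1 at P0. Every P21 library was above every P0 library in both diets. The log2 difference was 2.13 in HFD offspring (SE 0.18, adjusted p = 5.56e-07) and 1.36 in chow offspring (SE 0.22, adjusted p = 0.00036). These are 4.57-fold and 2.59-fold differences of the group means.

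Dlg4, which encodes PSD-95, the most abundant scaffold of mature excitatory synapses, passed in chow offspring. It was at 94.7, 96.0 and 96.3 units at P21, against 48.1, 62.4, 55.1, 51.8 and 39.6 at P0, with no overlap and a log2 difference of 0.90 (SE 0.17, adjusted p = 0.00107). In HFD offspring the P21 libraries spread from 57.1 to 101 units against 47.3 to 74.5 at P0, so the groups overlapped, and the difference of 0.49 did not pass (SE 0.20, adjusted p = 0.0552). It passed there without HFD P0 replicate 2 (0.59, adjusted p = 0.0280) or without HFD P21 replicate 3 (0.65, adjusted p = 0.0170), and when all 4 groups shared 1 fit (adjusted p = 0.0274). Dlg2 (PSD-93) and Dlg3 (SAP102, prominent in young synapses) passed in neither diet, with log2 differences of -0.21 and 0.23 in HFD offspring and -0.13 and 0.23 in chow offspring.

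Signal per kb of exon puts the 4 paralogs side by side. Dlg3 had the largest share of the summed per-kb signal of the Dlg genes in each group, at 47.4% ± 9.58 in HFD P21 (SD, n = 4), 47.8% ± 3.37 in chow P21 (n = 3), 58.0% ± 10.4 in HFD P0 (n = 5) and 57.0% ± 9.64 in chow P0 (n = 5). The share of Dlg1 was 25.6% ± 7.68 in HFD P21 and 18.7% ± 2.30 in chow P21, against 8.06% ± 1.70 in HFD P0 and 10.1% ± 2.58 in chow P0, and its P21 and P0 ranges did not overlap in either diet. That of Dlg4 was 18.4% ± 3.07, 23.6% ± 0.938, 19.7% ± 6.60 and 17.7% ± 3.50 in the same order of groups.

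**Figure D3:**
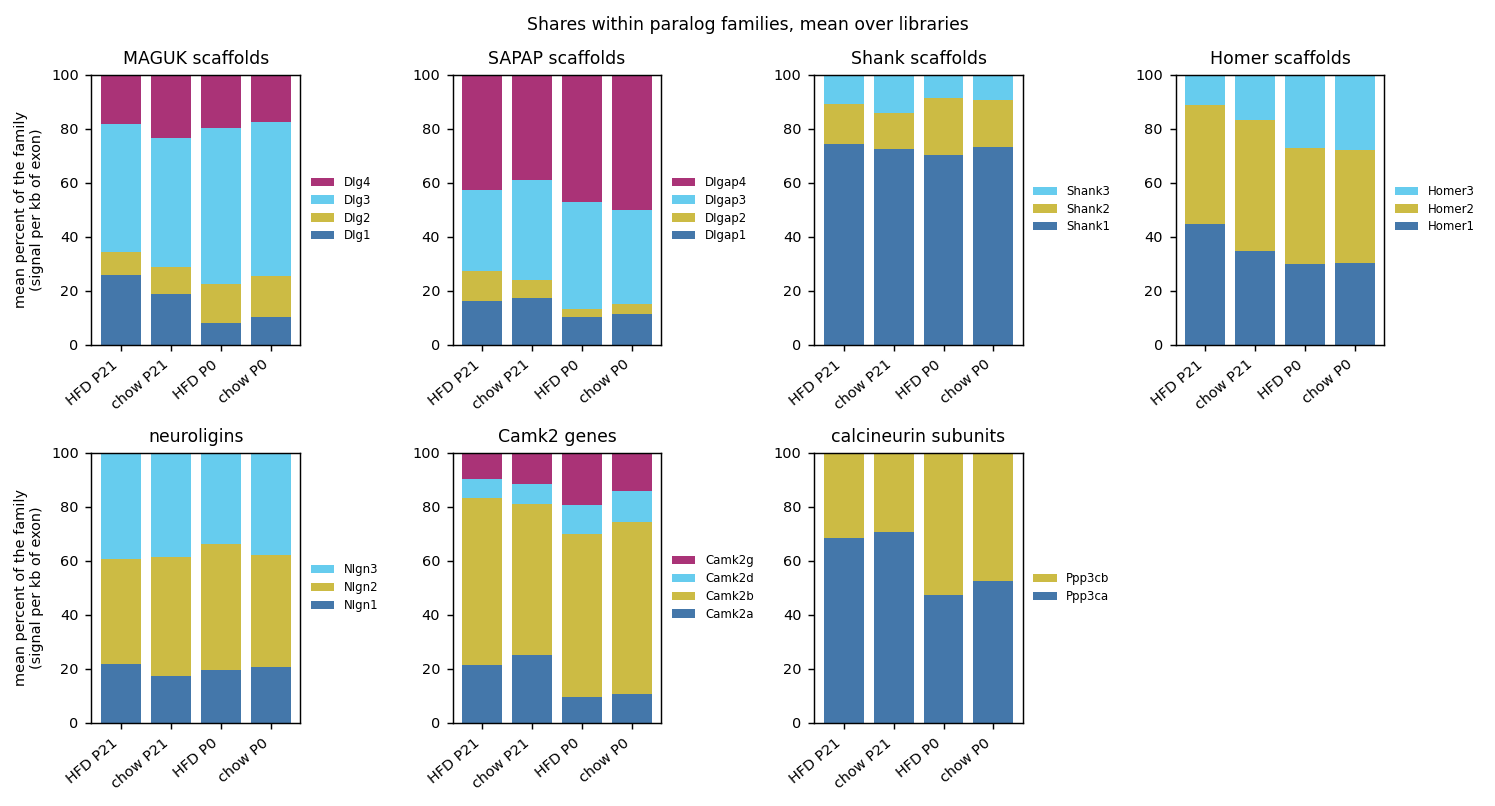
Stacked bars give the mean share of each gene in its paralog family, in percent of the family's summed signal per kb of exon, for the groups HFD P21, chow P21, HFD P0 and chow P0. The shares of Dlg1 among the Dlg genes, Camk2a among the Camk2 genes and Ppp3ca between the calcineurin subunits are larger in the P21 bars, and Shank1 holds 70.1% to 74.2% of the Shank signal in every group.

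The SAPAP genes did not move together. Dlgap4, a SAPAP scaffold found broadly in neurons, was at 70.4, 86.3, 73.1 and 89.0 units in HFD P21 against 140 to 187 in HFD P0 (median 183), and at 87.5, 102 and 103 in chow P21 against 169 to 185 in chow P0 (median 182). All P21 libraries lay below all P0 libraries. The log2 difference was -1.10 in HFD offspring (SE 0.15, adjusted p = 4.24e-05) and -0.88 in chow offspring (SE 0.13, adjusted p = 0.000227). Dlgap3, the SAPAP best known from the striatum, passed in HFD offspring at -1.33 (SE 0.21, adjusted p = 0.000136), where its signal was 25.3 to 34.6 units at P21 against 49.4 to 95.9 at P0. In chow offspring Dlgap3 was at -0.47 (SE 0.21, adjusted p = 0.105), with 32.3, 54.0 and 64.6 units at P21 overlapping 58.9 to 80.8 at P0. It passed there without chow P21 replicate 3, at -0.67 (adjusted p = 0.0393). Dlgap1 was at -0.31 and Dlgap2 at 1.01 in HFD offspring, and at 0.08 and 0.43 in chow offspring, and none of these passed.

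The Shank and Homer scaffolds were lower at P21 where they passed at all. Shank2 passed in HFD offspring, with 22.7, 25.5, 21.5 and 19.1 units at P21 against 38.8 to 67.5 at P0, a log2 difference of -1.22 (SE 0.19, adjusted p = 0.000147) with no overlap. In chow offspring Shank2 was at -0.48 (adjusted p = 0.143) and its groups overlapped. Shank1 and Shank3 passed in neither diet, at -0.68 and -0.45 in HFD offspring and -0.19 and 0.38 in chow offspring.

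Homer3 gave the clearest difference of the Homers, which link metabotropic receptors to internal calcium stores. It was at 1.30, 1.16, 0.610 and 1.56 units in HFD P21, against 5.43, 6.14, 7.04, 8.21 and 6.50 in HFD P0. Chow libraries held 2.86, 2.53 and 1.98 units at P21, against 6.82, 6.05, 6.84, 5.46 and 5.17 at P0. No P21 library reached any P0 library. The log2 difference of value + 1 was -1.84 in HFD offspring (SE 0.27, adjusted p = 7.05e-05) and -1.03 in chow offspring (SE 0.27, adjusted p = 0.00937), and since the values are near 1 this scale understates the change: the group means differed 5.76-fold and 2.47-fold. Homer3 had the lowest signal of the 39 at P21, the value of 0.610 units standing for an estimated 18 reads. It shares 25.4% of its exonic bases with Ddx49 on the opposite strand, and the strand setting of the counting is not given in the sources used here.

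Homer1 and Homer2 passed in HFD offspring, Homer1 at -0.64 (SE 0.20, adjusted p = 0.0174) with 14.5 to 17.5 units at P21 against 20.9 to 31.0 at P0, and Homer2 at -1.16 (SE 0.36, adjusted p = 0.0142) with 10.5 to 30.5 units at P21 against 15.9 to 56.7 at P0. The groups overlapped for Homer2 and not for Homer1, and Homer1 did not pass without HFD P21 replicate 2 (-0.59, adjusted p = 0.0504). In chow offspring they were at -0.32 and -0.30 and did not pass. The short activity-induced form of Homer1 cannot be told from the long forms in a table of genes.

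The neuroligins, postsynaptic adhesion proteins that bind presynaptic neurexins, passed in neither diet. Nlgn1, found at excitatory synapses, was at -0.04 in HFD offspring and -0.36 in chow offspring, Nlgn2, of inhibitory synapses, was at -0.36 and 0.01, and Nlgn3, present at both kinds, was at 0.11 and -0.07. The 95% intervals of these 6 differences lay within -0.96 to 0.75. Nlgn3 shares 41.2% of its exonic bases with the gene model Gm21986 on the same strand, so its counts are uncertain.

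**Figure D4:**
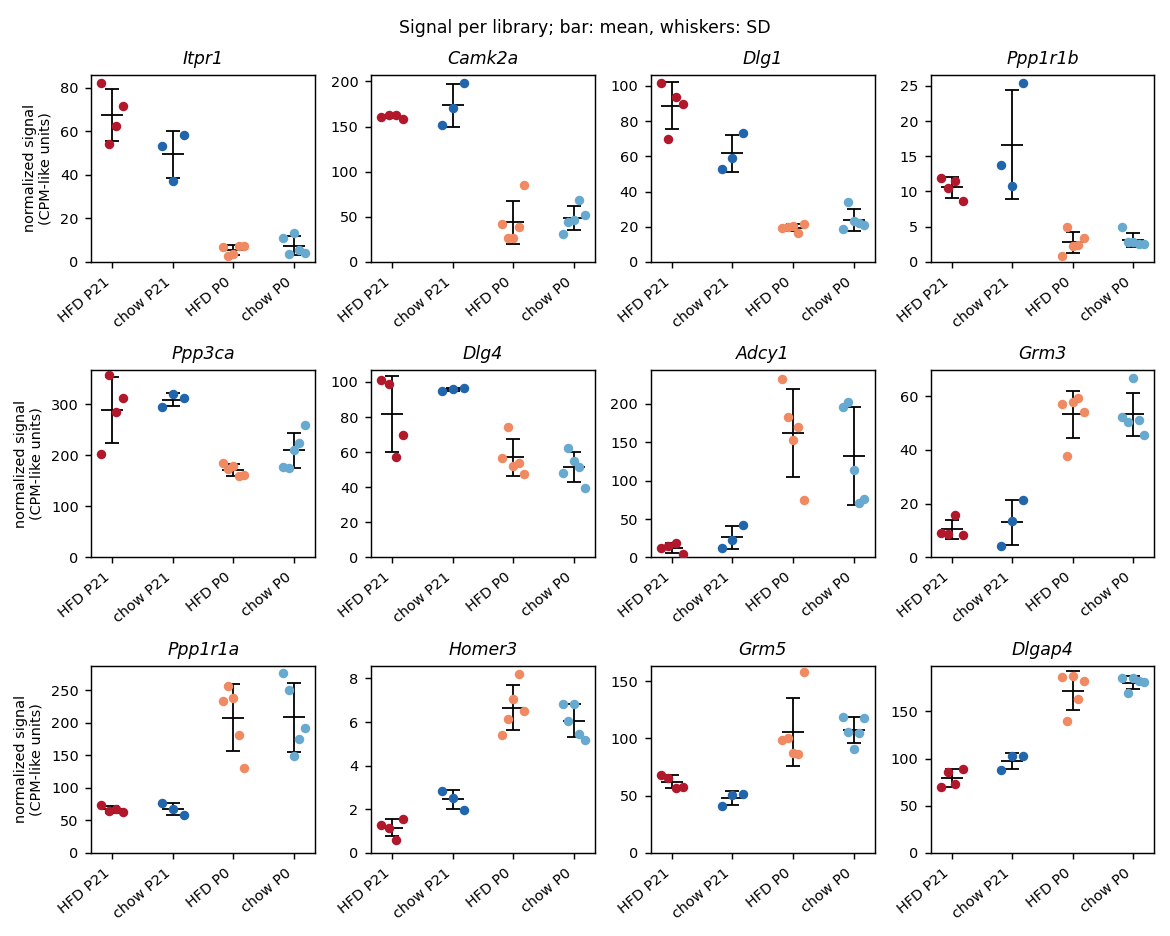
Points are the signal of 12 members in each library, in CPM-like units from 0, with groups in the order HFD P21, chow P21, HFD P0 and chow P0; the horizontal bar is the group mean and the whiskers its SD. The panels from Itpr1 to Dlg4 hold genes that were higher at P21 in at least 1 diet, and the panels from Adcy1 to Dlgap4 genes that were lower in both.

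CaMKII is a ring of subunits that calcium and calmodulin switch on during plasticity. Camk2a, its alpha subunit and a marker of maturing forebrain excitatory synapses, was at 161, 162, 163 and 159 units in HFD P21, against 41.7, 26.8, 26.6, 39.1 and 85.2 in HFD P0. The chow offspring had 151, 171 and 199 units at P21, against 30.9, 44.7, 46.2, 68.3 and 52.4 at P0. All P21 libraries were above all P0 libraries, and the 4 HFD P21 libraries lay closest together. The log2 difference was 1.99 in HFD offspring (SE 0.27, adjusted p = 4.51e-05) and 1.85 in chow offspring (SE 0.22, adjusted p = 4.07e-05). Camk2b, the beta subunit, which binds actin, passed in HFD offspring (0.84, SE 0.19, adjusted p = 0.00194). Its signal there was 493 to 696 units at P21 against 276 to 480 at P0. In chow offspring it was at 0.44 (adjusted p = 0.126) and passed without chow P0 replicate 5 (0.59, adjusted p = 0.0167). Camk2d and Camk2g passed in neither diet.

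By signal per kb of exon, Camk2b was the first of the Camk2 genes in each group, with 61.7% ± 4.90 of their sum in HFD P21, 55.9% ± 5.62 in chow P21, 60.4% ± 3.99 in HFD P0 and 63.7% ± 5.93 in chow P0. The share of Camk2a was 21.6% ± 1.89 in HFD P21 and 25.1% ± 4.54 in chow P21, against 9.71% ± 3.09 in HFD P0 and 10.6% ± 2.43 in chow P0. Its lowest share at P21, 19.0%, lay above its highest share at P0, 14.3%. Per kb of the longest transcript its shares were smaller, with means of 15.1% in HFD P21 and 17.9% in chow P21 and no library above 9.38% in HFD P0 or 9.34% in chow P0.

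Camk4, a nuclear kinase that phosphorylates CREB, was lower at P21. It was at 44.6, 57.8, 66.7 and 38.2 units in HFD P21 against 91.4 to 126 in HFD P0, and at 54.0, 40.6 and 52.3 in chow P21 against 70.6 to 130 in chow P0. The groups did not overlap in either diet, and the log2 difference was -1.02 in HFD offspring (SE 0.19, adjusted p = 0.000465) and -0.94 in chow offspring (SE 0.23, adjusted p = 0.00587).

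Both catalytic subunits of calcineurin on the list were called, and they moved in opposite directions in both diets. Calcineurin is the calcium-activated phosphatase of the synapse. Ppp3ca, the alpha isoform, was at 203, 357, 285 and 313 units in HFD P21 against 159 to 186 in HFD P0, and at 295, 319 and 313 in chow P21 against 176 to 259 in chow P0. P21 lay above P0 in each diet without overlap, with log2 differences of 0.73 (SE 0.17, adjusted p = 0.00234) and 0.57 (SE 0.16, adjusted p = 0.0130). The chow call was lost without chow P21 replicate 2 (0.55, adjusted p = 0.0597). Ppp3cb, the beta isoform, was at 105 to 132 units in HFD P21 against 108 to 209 in HFD P0, and at 108 to 123 in chow P21 against 151 to 202 in chow P0. Its log2 differences were -0.55 (SE 0.19, adjusted p = 0.0225) in HFD offspring, where the groups overlapped, and -0.54 (SE 0.14, adjusted p = 0.0103) in chow offspring. The HFD call was lost without any of HFD P0 replicates 1, 2 and 4 and HFD P21 replicates 2 and 4, the difference then lying between -0.48 and -0.53 and the adjusted p reaching 0.0601. Per kb of exon, Ppp3ca held 68.4% ± 6.16 of the pair in HFD P21 and 70.6% ± 1.15 in chow P21, against 47.3% ± 5.81 in HFD P0 and 52.4% ± 6.25 in chow P0.

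The 2 inhibitors of protein phosphatase 1 also moved in opposite directions. Ppp1r1a, inhibitor 1, was at 74.5, 64.1, 67.1 and 62.3 units in HFD P21, against 234, 256, 238, 181 and 131 in HFD P0. Chow offspring had 76.5, 67.2 and 58.3 units at P21, against 277, 250, 149, 176 and 191 at P0. No library of one age reached the other, and the log2 difference was -1.58 (SE 0.19, adjusted p = 1.53e-05) in HFD offspring and -1.59 (SE 0.20, adjusted p = 7.24e-05) in chow offspring. The interaction was 0.00 with a 95% interval of -0.60 to 0.61. Ppp1r1b, which encodes DARPP-32, the related inhibitor that dopamine signalling phosphorylates in the striatum, was at 11.9, 10.5, 11.5 and 8.58 units in HFD P21 against 0.800 to 4.96 in HFD P0. In chow offspring it was at 13.8, 10.8 and 25.4 at P21 against 2.48 to 4.93 at P0. The log2 differences were 1.72 (SE 0.33, adjusted p = 0.000696) and 2.04 (SE 0.33, adjusted p = 0.000386), and the groups did not overlap. Ppp1r1b shares 15.7% of its exonic bases with a gene model on the opposite strand. Per kb of exon Ppp1r1a remained above Ppp1r1b at P21, at 51.3 units per kb in HFD P21 and 51.6 in chow P21, against 3.63 and 5.69 for Ppp1r1b in the same groups.

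Of the genes of cAMP signalling, Adcy1 fell most of the 39. Adcy1 encodes adenylyl cyclase 1, which calcium and calmodulin activate to make cAMP. It was at 11.8, 14.6, 18.7 and 4.39 units in HFD P21, against 233, 182, 153, 170 and 75.1 in HFD P0. Values in chow offspring were 12.9, 23.2 and 42.1 at P21, against 196, 203, 113, 70.5 and 75.9 at P0. Every P21 library was below every P0 library. The log2 difference was -3.67 in HFD offspring (SE 0.36, adjusted p = 2.56e-06) and -2.30 in chow offspring (SE 0.40, adjusted p = 0.000682), the group means differing 13.1-fold and 5.05-fold.

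Creb1, the transcription factor at the end of this pathway, and Crebbp, its coactivator CBP, passed in HFD offspring. Creb1 was at 22.6 to 30.3 units at P21 against 31.7 to 46.2 at P0 (-0.55, SE 0.19, adjusted p = 0.0264), a call lost without HFD P0 replicate 3 or HFD P21 replicates 2 or 3 (-0.48 to -0.51, adjusted p up to 0.0763). Crebbp was at 24.8 to 32.2 units at P21 against 31.4 to 88.5 at P0, overlapping through 1 P0 library, replicate 5 (-1.04, SE 0.25, adjusted p = 0.00368). In chow offspring they were at -0.36 and -0.47 and did not pass.

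The branch of phospholipase C, protein kinase C and the IP3 receptor held the largest rise. Itpr1 encodes the main neuronal IP3 receptor, which releases calcium from the endoplasmic reticulum. It was at 82.2, 54.4, 62.6 and 71.8 units in HFD P21, against 6.67, 2.88, 3.46, 7.53 and 7.55 in HFD P0. In chow offspring it was at 53.1, 37.3 and 58.1 at P21, against 11.0, 3.44, 13.1, 5.38 and 3.92 at P0. The lowest P21 library was well above the highest P0 library. The log2 difference was 3.44 in HFD offspring (SE 0.28, adjusted p = 5.56e-07) and 2.73 in chow offspring (SE 0.38, adjusted p = 0.000148), and the group means differed 12.1-fold and 6.72-fold.

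The other members of this branch changed little by comparison with Itpr1. Plcb1, the phospholipase that group I receptors activate through Gq, was at -0.22 in HFD offspring and -0.18 in chow offspring, and Prkca was at 0.05 and -0.09, none of which passed. Prkcb, a protein kinase C isoform, passed in chow offspring at -0.63 (SE 0.14, adjusted p = 0.00395), with 200, 194 and 196 units at P21 against 272 to 364 at P0 and no overlap. In HFD offspring it was at 120 to 205 units at P21 against 143 to 306 at P0 (-0.42, adjusted p = 0.125), and it passed without HFD P0 replicate 5 (-0.60, adjusted p = 0.00650).

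Of the 6 metabotropic glutamate receptors, Grm3 and Grm5 were lower at P21 in both diets and the other 4 passed in neither. Grm3 encodes mGluR3, a Gi-coupled receptor of neurons and astrocytes. It was at 9.12, 8.86, 15.8 and 8.32 units in HFD P21, against 57.2, 37.9, 57.8, 59.4 and 54.0 in HFD P0. Its values in chow offspring were 4.22, 13.5 and 21.3 at P21, against 52.4, 50.5, 66.6, 51.3 and 45.4 at P0. The ages did not overlap, and the log2 difference was -2.26 in HFD offspring (SE 0.23, adjusted p = 3.05e-06) and -2.18 in chow offspring (SE 0.36, adjusted p = 0.00049). Beside Grm3, the summed signal of 9 tanycyte and radial glia markers was also lower at P21, at 105 to 183 units in HFD P21 and 132 to 204 in chow P21, against 875 to 1557 in HFD P0 and 1122 to 2037 in chow P0. Fabp7 made up most of that sum at P0, at 632 to 1272 units in HFD P0 and 907 to 1707 in chow P0. The tanycyte markers Rax and Col23a1 overlapped between the ages in both diets, so the lower sum does not hold for every gene of the list. The astrocyte markers differed among themselves: their sum was higher at P21, while Aldh1l1 was at 18.3 to 23.2 units in HFD P21 against 39.3 to 68.4 in HFD P0. In chow offspring the ages overlapped for Aldh1l1, at 28.4 to 58.3 units at P21 against 47.1 to 78.8 at P0. Hepacam was also lower at P21 in HFD offspring, at 32.4 to 45.0 units against 56.3 to 90.9 at P0. In chow offspring Hepacam was higher at P21, at 77.3 to 136 units against 44.8 to 67.5 at P0. The part of these cells in the Grm3 signal was not tested.

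Grm5 encodes mGluR5, the Gq-coupled receptor that binds Homer. It was at 68.1, 65.8, 57.1 and 57.8 units in HFD P21 against 86.1 to 158 in HFD P0, and at 41.3, 51.0 and 51.7 in chow P21 against 90.5 to 118 in chow P0. P21 lay below P0 in each diet without overlap, at -0.72 (SE 0.19, adjusted p = 0.00518) in HFD offspring and -1.14 (SE 0.15, adjusted p = 0.000109) in chow offspring. Grm2, Grm4, Grm7 and Grm8, which couple to Gi and act largely at presynaptic endings, ranged from -0.43 to 0.45 in HFD offspring and from -0.28 to -0.09 in chow offspring.

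The promoters of 26 of the 39 members are in the RefSeq promoter table for GRCm38.p6 (the assembly of mm10), with 41 starts, and the 250 bases before each start were searched as 1 window. A full cAMP response element, TGACGTCA on either strand, was in 0 of the 41, against 1.55% of all 32851 windows of the table. The GC box GGGCGG, or CCGCCC on the other strand, was in 23 of the 41, against 32.7% of all windows, and a match is a description of letters and not of a site in use. The 250 bases before the start are shown for 3 members that changed with age in both diets, Adcy1 and Grm3, which were lower at P21, and Dlg1, which was higher. Capitals mark GC boxes, the strand is that of the gene, and for Dlg1 the first of 4 annotated starts is shown. Adcy1 lies at chr11:7063183-7063432 on the plus strand, Grm3 at chr5:9725353-9725602 on the minus strand and Dlg1 at chr16:31663193-31663442 on the plus strand. The Adcy1 window holds 3 GC boxes, the Grm3 window 1 and the Dlg1 window 1.
Adcy1: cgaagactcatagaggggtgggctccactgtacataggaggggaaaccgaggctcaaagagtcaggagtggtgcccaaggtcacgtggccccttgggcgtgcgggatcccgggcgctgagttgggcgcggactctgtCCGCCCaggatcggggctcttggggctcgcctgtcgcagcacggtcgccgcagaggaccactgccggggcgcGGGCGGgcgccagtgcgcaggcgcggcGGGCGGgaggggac
Grm3: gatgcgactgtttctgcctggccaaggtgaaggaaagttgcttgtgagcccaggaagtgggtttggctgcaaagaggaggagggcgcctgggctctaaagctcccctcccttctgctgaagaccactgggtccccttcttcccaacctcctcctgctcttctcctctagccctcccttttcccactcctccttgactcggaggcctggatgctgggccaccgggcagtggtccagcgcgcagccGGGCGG
Dlg1: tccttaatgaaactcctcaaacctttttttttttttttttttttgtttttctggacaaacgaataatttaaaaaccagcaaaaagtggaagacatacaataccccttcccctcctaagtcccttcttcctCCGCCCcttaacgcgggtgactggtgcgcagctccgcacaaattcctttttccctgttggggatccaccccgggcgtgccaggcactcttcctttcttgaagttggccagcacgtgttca

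By signal per kb of exon, which allows levels of different genes to be compared, the same few members led at P21 in both diets. Camk2b was first at 62.4 units per kb in HFD P21 and 52.3 in chow P21, followed by Ppp1r1a at 51.3 and 51.6, Ppp3ca at 29.0 and 31.0, Prkcb at 23.1 and 25.7, and Camk2a at 21.6 and 23.3. At P0 Ppp1r1a was first, at 159 units per kb in HFD P0 and 160 in chow P0. Homer3 was last at P21 (0.34 and 0.71 units per kb) and Itpr1 last at P0 (0.31 and 0.40). The order depends in part on the length used. Per kb of the longest transcript Camk2b stayed first at P21, at 138 units per kb in HFD P21 and 116 in chow P21, and Ppp1r1a, at 51.3 and 51.6, came after Ppp3ca (60.9 and 65.0) and Prkcb (53.1 and 59.2). With that length Ppp1r1a was still first at P0, Homer3 last at P21 and Itpr1 last at P0.

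Other postsynaptic and plasticity genes, taken from lists made by role, gave the surroundings. Of 37 further excitatory postsynaptic genes tested, 11 were higher and 7 lower at P21 in HFD offspring, and 15 were higher and 5 lower in chow offspring. By share, 29.7% were higher and 18.9% lower in HFD offspring, against 24.7% and 26.2% of all genes tested. In chow offspring 40.5% were higher and 13.5% lower, against 18.3% and 17.7% of all genes. Nrgn, which encodes the calmodulin-binding protein neurogranin, averaged 134 ± 17.3 units in HFD P21 against 30.3 ± 5.48 in HFD P0, and 122 ± 2.78 in chow P21 against 30.6 ± 7.36 in chow P0 (2.11 and 2.00 on the log2 scale). Baiap2, an actin regulator that binds PSD-95 and Shank, was at 1.84 in HFD offspring and 1.74 in chow offspring, Itpka, an IP3 kinase of spines, at 1.58 and 1.89, and the activity-induced Arc at 1.13 and 1.83. Of the genes that fell in chow offspring without overlap, the 4 with the largest falls there were Neto2, an auxiliary subunit of kainate receptors (-2.26 in HFD and -2.09 in chow offspring), and the AMPA receptor partners Grip1 (-0.80 and -1.61), Shisa7 (-1.38 and -1.35) and Cnih2 (-1.45 and -1.25). All of these passed in both diets.

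Of 40 further plasticity signalling genes, 15 were higher and 12 lower at P21 in HFD offspring, and 14 were higher and 3 lower in chow offspring. The share higher in HFD offspring was 37.5%, against 24.7% of all genes tested. The share lower there was slightly above the 26.2% of all genes. For chow offspring the shares were 35% higher and 7.5% lower, against 18.3% and 17.7% of all genes. Ppp3r1, the regulatory subunit of calcineurin, was at 0.99 in HFD offspring and 0.95 in chow offspring, and Prkar1b, a regulatory subunit of protein kinase A, at 1.38 and 0.97. Lower in both diets were Prkar2b, another such subunit (-0.99 and -1.54), Gnaq, which couples group I receptors to phospholipase C (-0.96 and -0.92), and Ppp3cc, another calcineurin catalytic subunit (-0.79 and -0.90). Itpr2 passed in chow offspring at 1.01 and was at -0.08 in HFD offspring.

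Of 12 inhibitory postsynaptic genes, 3 were higher and 5 lower at P21 in HFD offspring, and 3 were higher and 4 lower in chow offspring. The shares were 25.0% higher and 41.7% lower in HFD offspring, against 24.7% and 26.2% of all genes tested. For chow offspring they were 25.0% and 33.3%, against 18.3% and 17.7% of all genes. Nsf, an ATPase of receptor and vesicle trafficking, was at 1.68 in HFD offspring and 1.33 in chow offspring, and Dmd, which encodes dystrophin, at 0.53 and 0.74. Mdga1, which blocks neuroligin 2 from binding neurexin, was lower at -2.31 and -1.81. Dag1, Mdga2 and Lhfpl4 passed among the lower in both diets, at -1.34, -0.59 and -0.95 in HFD offspring. They were at -0.51 to -0.58 in chow offspring, where each of the 3 lost its call in at least 1 fit with a library left out.

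Diet was set against the same genes at each age. At P21, 0 of the 39 passed between HFD and chow offspring (limma, Benjamini-Hochberg), against 0.178% of all genes tested (0.0995% higher, 0.0782% lower), and 7 had an unadjusted p under 0.05, against 2393 of 14070 genes. The median log2 difference of the 39 was -0.12, against -0.02 over all genes. The member with the smallest p was Dlgap1, a SAPAP scaffold, at 56.1, 69.3, 55.8 and 71.2 units in HFD P21 against 84.7, 92.0 and 94.6 in chow P21. Its groups did not overlap, and the log2 difference of -0.52 did not pass (SE 0.16, 95% interval -0.86 to -0.18, adjusted p = 0.141).

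The next 3 by p at P21 were Dlg1, Dlgap3 and Shank3. Dlg1 was at 70.0 to 101 units in HFD P21 against 52.9 to 73.4 in chow P21 (0.52, 95% interval 0.13 to 0.90, adjusted p = 0.184). Dlgap3 was at 25.3 to 34.6 against 32.3 to 64.6 (-0.69, 95% interval -1.22 to -0.15, adjusted p = 0.197), and Shank3, which anchors the density's lower layer, was at 7.22 to 19.4 against 18.9 to 32.0 (-0.80, 95% interval -1.51 to -0.10, adjusted p = 0.236). These 3 pairs of groups overlapped. Groups did not overlap for 3 members at P21, against 16.1% of all genes. Besides Dlgap1 they were Homer3 (0.610 to 1.56 units in HFD P21 against 1.98 to 2.86 in chow P21) and Grm5 (57.1 to 68.1 against 41.3 to 51.7), which are named here after their values were seen. Several marker lists also differed between the P21 groups without overlap. The summed oligodendrocyte and astrocyte markers given above were lower in HFD P21, as were 12 microglial markers (249.03 to 376.79 units in HFD P21 against 414 to 708 in chow P21) and 14 endothelial and mural markers (86.7 to 145 against 153 to 221). The 9 POMC neuron markers were mixed. Cartpt, a peptide gene that many POMC neurons express, was higher, at 1912 to 2761 units in HFD P21 against 391 to 834 in chow P21. Pcsk1 was also higher (90.7 to 137 against 36.3 to 71.6), while Cpe was lower (2094 to 2488 against 2640 to 3696). The rest of that list, Pomc among them, overlapped. The part of these in the diet differences was not tested.

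**Figure D5:**
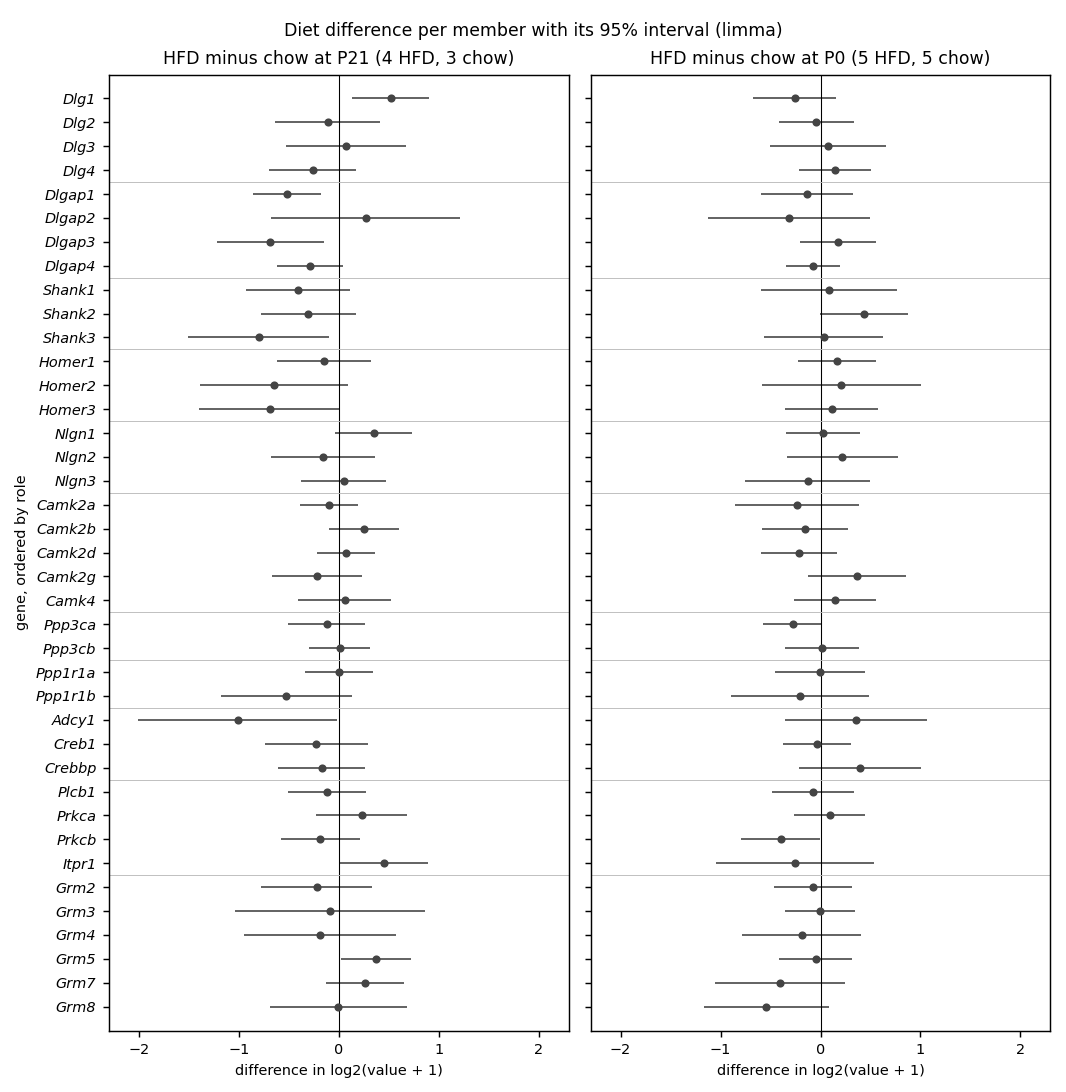
Points are HFD minus chow differences in log2(value + 1) for the 39 genes, ordered by role, at P21 (left) and at P0 (right), with 95% intervals from limma before any adjustment for multiple tests. At P21 the intervals of Dlg1, Dlgap1, Dlgap3, Shank3, Adcy1, Itpr1 and Grm5 leave out 0, and at P0 that of Prkcb does; none passed the adjusted threshold.

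At P0 0 of the 39 passed between HFD and chow offspring in limma, against 0.291% of all genes tested (0.0071% higher, 0.284% lower), and 1 had an unadjusted p under 0.05, against 1307 of 14086 genes. The edgeR quasi-likelihood test on reads recovered for 2 HFD and 3 chow libraries also called 0. No member had groups that did not overlap, against 2.45% of all genes, and the median log2 difference was -0.04. The smallest p belonged to Prkcb, at 143 to 306 units in HFD P0 against 272 to 364 in chow P0 (-0.40, 95% interval -0.79 to -0.00, adjusted p = 0.532). Shank2 was at 38.8 to 67.5 against 29.3 to 56.7 (0.44, 95% interval -0.00 to 0.88, adjusted p = 0.539). Ppp3ca was at 159 to 186 against 176 to 259 (-0.28, adjusted p = 0.572) and Grm8 at 5.89 to 21.4 against 15.4 to 24.4 (-0.54, adjusted p = 0.602). Every one of these pairs overlapped. The width of the interval differed between members. At P21 the intervals of the calcineurin pair lay within -0.51 to 0.31, while that of Adcy1 reached from -2.01 to -0.02. Over all 39, no interval went beyond -1.17 to 1.06 at P0 or beyond -2.01 to 1.21 at P21.

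Among the other 3 lists, 1 gene passed between the diets at P0. Prkaca, the catalytic subunit alpha of protein kinase A, averaged 98.4 ± 33.0 units in HFD P0 and 282 ± 69.0 in chow P0 (SD, n = 5 each), a log2 difference of -1.57 (SE 0.26, adjusted p = 0.0166, limma). At P21 it averaged 384 ± 216 units in HFD and 336 ± 129 in chow offspring, a difference of -0.01 (adjusted p = 0.995). The difference kept its size where the call was lost, at -1.57 without HFD replicate 1 (adjusted p = 0.0528), -1.49 without chow replicate 4 (adjusted p = 0.0571), -1.46 without chow replicate 5 (adjusted p = 0.0649) and -1.57 in 1 fit over all 4 groups (adjusted p = 0.112). The call was also lost in edgeR on the recovered reads (-1.62, adjusted p = 0.0950).

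Whether the age difference itself depended on diet was tested over all 17 libraries. The interaction passed for 0 of the 39 members (limma), against 0.0266% of all genes tested (0.0133% with a positive and 0.0133% with a negative term), with 5 at an unadjusted p under 0.05 and a lowest adjusted p of 0.187. The 4 members with the smallest p were Dlg1 (0.77, SE 0.27), Dlgap3 (-0.86, SE 0.31, adjusted p = 0.196), Shank2 (-0.75, SE 0.31, adjusted p = 0.260) and Homer3 (-0.81, SE 0.34, adjusted p = 0.267), each as the HFD minus the chow age difference on the log2 scale. Without HFD P0 replicate 5 the interaction passed for 1 member, Dlgap3 (-1.02, adjusted p = 0.0438), while over all genes 301 then had a positive and 256 a negative term past the threshold.

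HFD P0 replicate 5 stood apart from its group in these genes. It held the lowest or the highest value of the 5 HFD P0 libraries for 30 of the 39 members. Dlg3 was at 163 units there against 56.2 to 71.5 in the other 4, Nlgn3 at 166 against 51.7 to 62.0, and Adcy1 at 75.1 against 153 to 233. Its Pomc signal was 1057 units, against 90.7 to 246 in those 4 libraries. The chow P0 libraries also spread, with Pomc at 146, 224, 657, 891 and 1308 units in replicates 1 to 5, beside Adcy1 at 196, 203, 113, 70.5 and 75.9 and Homer2 at 60.3, 55.5, 30.1, 20.9 and 17.9. In both diets the P0 libraries with the least Adcy1 were among those with the most Pomc. At P21, Pomc was at 12070 units in chow replicate 3, against 3878 and 4679 in the other chow libraries. The part of the Pomc content of a library in the members' values was not tested.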

How the data were processed

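The deposited table holds normalized signal per gene, in CPM-like units with 2 decimals, for 17 libraries. The submitters' processing notes name HTSeq (0.6.1), TopHat2 (2.0.13), Picard (1.80), edgeR and FastQC, and the build mm10; the authors' settings, strand choice and gene filter were not given in the sources used here. Per the labels' protocols, tagged ribosomes were pulled down with an HA antibody and Nextera XT libraries gave single reads of 50 bases. The deposited signal is whole reads divided by an effective library size: in every library at least 99.45% of non-zero values in the tested range lay within 0.005 units of a whole read, against 22.0% to 36.4% at random. Column sums run from 0.908 to 1.105 M, and 15 columns are empty. A value of 0 allows up to 3 reads, 0.0826 to 0.138 units, for counting error only. Reads of 6 libraries could be recovered, so depths and read numbers of the other 11 are estimates.

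Each comparison was fitted over all genes using limma (3.58.1, R 4.3.3). Values entered as log2(value + 1), with limma's trend option, no covariate, 2-sided tests and Benjamini-Hochberg adjustment at 0.05 over all genes tested. Genes entered a comparison when they exceeded 1 in a number of libraries no smaller than its smaller group, as all 39 members did. Differences on this scale understate changes of low genes. The fit was run on simulated data with independent normal noise per gene, as a check for bias and sign errors. Those data held no correlation between genes and no deviant library, so they cannot show how the fit behaves with either. edgeR 4.0.16 was run on the recovered reads alone, an alternative chosen after seeing the data. Exon lengths, coordinates and overlaps come from GENCODE M21 (GRCm38), and 17 members share exonic bases with another gene, 3 of them over 10%. The members, the gene lists and the tests were chosen with earlier results of these data known. Every member could be named with age. In the diet comparisons and the interaction the 4 with the smallest p were named, and of the other lists the 4 largest rises and 4 largest falls past the threshold without overlap in chow offspring. Some genes that this rule names are not reported here. The alternatives were other pseudocounts, no filter, other scalings, a replicate block, all groups in 1 fit and each library left out.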

Additional observations from a re-analysis of the deposited data

Results flagged for a closer look

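In 13 of the 117 sets of values examined (39 members in each of the 3 groups of 4 or 5 libraries), the highest or lowest library lay further from the rest than Dixon's 95% critical value allows; chance flags about 1 in 20 groups, and the genes of a library are not independent. HFD P0 replicate 5 gave 6 of them, with Dlg3 at 163.11 units (56.2 to 71.5 in the other 4), Nlgn3 at 166.12 (51.7 to 62.0), Camk2a at 85.17 (26.6 to 41.7), Camk2b at 480.17 (276 to 290), Grm5 at 157.67 (86.1 to 100) and Shank3 at 11.21 (20.6 to 23.9). Chow P0 replicate 2 gave Dlg1 at 34.27 (18.6 to 23.0), Dlg2 at 79.88 (45.8 to 50.9) and Dlgap4 at 168.93 (181 to 185). The others were Ppp1r1b at 4.93 in chow P0 replicate 1 (2.48 to 2.87), Grm3 at 37.93 in HFD P0 replicate 2 (54.0 to 59.4) and at 15.81 in HFD P21 replicate 3 (8.32 to 9.12), and Shank1 at 68.33 in HFD P21 replicate 4 (122 to 132).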

How the results depend on the processing

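The count of members past the threshold was 0 in both diet comparisons under every alternative run. With age in HFD offspring 6 members were higher and 14 lower; leaving out 1 library gave 6 to 10 higher and 11 to 17 lower, and with age in chow offspring, 5 to 7 higher and 9 to 10 lower. In the interaction leaving out 1 library gave 0 to 1 lower. The replicate numbers did not pair the libraries consistently: same-numbered deviations correlated at -0.18 to 0.50, and not every library matched its own number best. Between the diets at P0, replicates 1, 2 and 5 matched their own number best, at 0.19, 0.28 and 0.50, and replicates 3 and 4 did not. With the replicate block that comparison called 16 genes higher and 88 lower over all genes, against 1 and 40 without it. Pairing at P0 is therefore not settled. The replicate block, which keeps numbers present at both ages, gave 10 higher and 17 lower members with age in HFD offspring, and the same libraries with no block also gave 10 higher; in chow offspring it gave 7 higher and 10 lower. On the 4 chow libraries with recovered reads (3 P0 and 1 P21, the lone P21 library assumed to vary like the others), edgeR called 3 members higher and 1 lower and limma also 3 and 1, with fewer libraries tested; Homer2 turned to 0.28 in edgeR and 0.46 in limma, and Camk2b to -0.0352 and -0.00406, none of which passed. Over all genes, edgeR on the recovered reads called 0 higher and 3 lower with diet at P0, where limma called 0 and 24 on the same libraries and 1 and 40 on all. With age in chow offspring edgeR called 558 higher and 368 lower, and limma 568 and 502 on the same libraries and 2669 and 2582 on all. Counts over all genes with diet were unstable: leaving out 1 library gave 17 to 109 lower at P0 and 0 to 37 lower at P21. Other scalings moved the median of all genes by less than 0.1 on the log2 scale. Depth limits the lowest members, such as Homer3 at P21 and Ppp1r1b at P0, and 3 chow P21 libraries limit the comparisons at P21.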
